A study of Mus musculus with 14 samples.

Results

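Group 1 of the single-nucleus data holds hepatocyte nuclei. In group 1, 6 markers of the periportal side of the liver lobule had their highest mean level among 12 groups of nuclei. So did 13 of 18 further periportal genes. Group 1 was taken as the authors numbered it. There were 24 columns of nuclei, 1 for each of 12 groups in each of 2 genotypes. The 2 columns of group 1 were described gene by gene. The nuclei came from livers of Ms4a7 knockout (KO) mice and wild type mice, both fed for 22 weeks a diet that induces nonalcoholic steatohepatitis (NASH). Each genotype is 1 library that pools nuclei of 3 livers, sorted by flow cytometry after propidium iodide staining and prepared on a 10x droplet platform. Whole-liver RNA was sequenced from 3 libraries labelled Ms4a7 KO and 3 labelled wild type, both on the NASH diet for 22 weeks, and from 3 libraries labelled LD (lipid droplets) and 3 labelled PBS, from wild type mice on chow given tail-vein injections on 6 consecutive days. The design of the deletion, the cells it acts in, and the age and sex of the mice are not given in the sources used here.

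A level is the mean over the nuclei of a column of unique molecular identifiers (UMIs), the tags that mark single RNA molecules, scaled to 10000 per nucleus. With 1 library per genotype there is no replicate and no test for nuclei, and the number of nuclei and their depth are unknown, so no interval can be given. A difference is named here when it reached 2-fold among the 2000 genes with the highest level in the columns compared. The lowest of the 2000 in group 1 had a level of 1.13. That level is the mean of KO and wild type, so a high level in 1 genotype alone could bring a gene in. Counts of genes past 2-fold between the genotypes are therefore a description.

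Blood enters the lobule at the portal side and leaves at the central vein, and hepatocytes along that path divide the work. Periportal hepatocytes, which meet oxygen, amino acids and hormones first, are known for urea synthesis, breakdown of amino acids, glucose production and much of the secreted protein output. Pericentral hepatocytes, under Wnt signals from the central vein, are known for glutamine synthesis and for cytochrome P450 enzymes.

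Of the 6 markers by which group 1 is called periportal-like, 3 had an entry among RefSeq promoters of build GRCm38.p6, which run from 250 bases before to 50 bases after a gene's start. The promoters of Hamp and Pck1 are shown because these genes are textbook cases of hepatocyte transcription set by signals from outside the cell. Hamp encodes hepcidin, the hormone that limits iron export, and answers BMP and STAT3 signals. Pck1 encodes the cytosolic phosphoenolpyruvate carboxykinase of glucose production and answers cAMP. The Hamp promoter lies at chr7:30943980-30944279 on the minus strand and the Pck1 promoter at chr2:173152823-173153122 on the plus strand. Capitals in Hamp mark GGCGCC, the core of a BMP response element, and TTCTTGGAA, a match to the STAT motif TTCNNNGAA; in Pck1 they mark TTACGTCA, the cAMP response element.
Hamp: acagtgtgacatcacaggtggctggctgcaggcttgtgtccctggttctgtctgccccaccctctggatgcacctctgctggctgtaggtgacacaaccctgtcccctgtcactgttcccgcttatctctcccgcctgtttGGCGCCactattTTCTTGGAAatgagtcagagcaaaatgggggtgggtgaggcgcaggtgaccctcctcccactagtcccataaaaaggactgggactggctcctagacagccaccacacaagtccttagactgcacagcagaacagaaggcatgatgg
Pck1: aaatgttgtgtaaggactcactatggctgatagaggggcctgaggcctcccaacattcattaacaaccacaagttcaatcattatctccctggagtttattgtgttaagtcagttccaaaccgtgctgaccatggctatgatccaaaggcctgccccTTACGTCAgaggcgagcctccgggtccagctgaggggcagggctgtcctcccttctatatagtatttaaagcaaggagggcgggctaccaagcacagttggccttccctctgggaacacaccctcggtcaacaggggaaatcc
Both strands were searched and no 2 motifs overlapped. GGCGCC began 109 bases before the start of Hamp and occurs in 11.9% of 32851 promoters of the same length. TTCNNNGAA began 97 bases before it and occurs in 8.3%, and TTACGTCA began 93 bases before the start of Pck1 and occurs in 0.499%. A match describes the letters and does not show that a factor was bound in these nuclei.

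All 6 markers were highest in group 1 in the mean of both genotypes. They are grouped here by role. For breakdown of amino acids, Sds (serine dehydratase, chr5:120476526-120483932) had a level of 7.74 in KO and 2.33 in wild type in group 1, against 0.166 and 0.0413 in group 0, the other hepatocyte-like group. Hal (histidine ammonia lyase, chr10:93488768-93519304) had 4.41 in KO and 2.81 in wild type in group 1, against 0.245 and 0.149 in group 0. Gls2 (liver glutaminase, chr10:128194457-128210004) had 3.63 in KO and 1.57 in wild type in group 1, against 0.242 and 0.137 in group 0. Thus each of these 3 enzymes was more than 10-fold higher in group 1 than in group 0 in the mean of both genotypes.

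For nitrogen and glucose, Cps1 (carbamoyl phosphate synthetase of the urea cycle, chr1:67123026-67231259) had a level of 63.4 in KO and 35.8 in wild type in group 1, against 18.5 and 10.1 in group 0. Pck1 (chr2:173153048-173159273) had 6.77 in KO and 4.68 in wild type in group 1, against 1.37 and 1.22 in group 0. Hamp (chr7:30942368-30944032) had 18.3 in KO and 5.35 in wild type in group 1, against 1.66 and 1.07 in group 0. These genes were also present in group 0 at lower levels, at folds of 3.47 for Cps1, 4.42 for Pck1 and 8.68 for Hamp. The pericentral genes ran the other way: Glul (glutamine synthetase) had 0.146 in KO and 0.154 in wild type in group 1, against 4.92 and 4.58 in group 0. Cyp2e1, a cytochrome P450 of ethanol and drug oxidation, had 3.09 in KO and 2.75 in wild type in group 1, against 22.1 and 16.9 in group 0. The label periportal-like was given by the 6 markers, so their high levels do not test it. The pericentral genes named here were low in group 1. All of these genes belong to the data on which the groups were formed, so that their levels are a description.

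**Figure D1:**
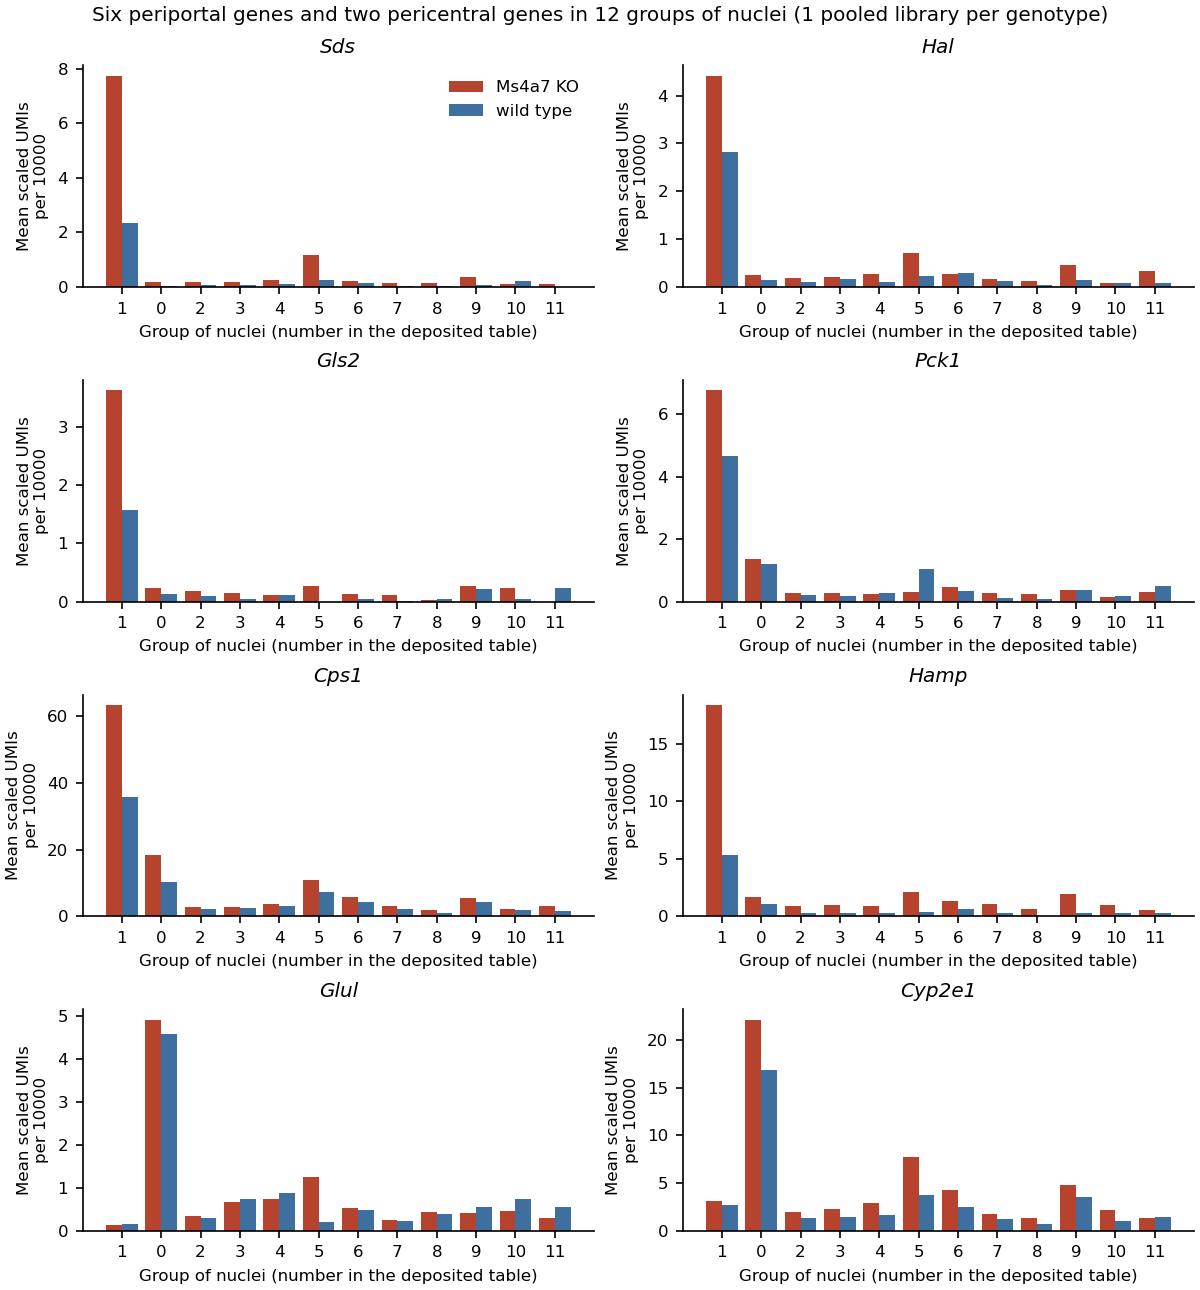
Level (mean scaled UMIs per 10000; linear axis from 0) of 6 periportal and 2 pericentral genes in the 12 numbered groups of nuclei, with group 1 at the left; each bar is 1 pooled library, KO red and wild type blue. The 6 genes drawn as periportal stand highest in group 1, and Glul and Cyp2e1 in group 0. Of the 6, Hamp is also on the midlobular list.

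Group 1 carried little RNA of markers of other cell types. The summed level of 13 macrophage markers was 0.284 in KO and 0.229 in wild type in group 1, against 73.6 and 63.4 in group 3, where all 13 were highest, that is, had their highest mean level. For 10 stellate cell markers it was 0.485 in KO and 0.454 in wild type in group 1, against 106 and 88.4 in group 2, and for 10 endothelial markers 0.355 and 0.530, against 173 and 139 in group 4. The 8 cholangiocyte markers summed to 2.64 in KO and 5.42 in wild type in group 1, against 158 and 159 in group 7, and most of that in group 1 was Pkhd1, the fibrocystin gene, at 2.10 in KO and 4.10 in wild type. The 9 T and NK cell markers summed to 0.152 in KO and 1.13 in wild type in group 1, nearly all of it in wild type being Themis, a T cell signalling protein. No marker of these lists was at 0 in both columns of group 1. Ms4a7 itself, the deleted membrane protein gene, was at 0.00256 in KO and 0.00495 in wild type in group 1, against 0.622 and 1.25 in group 3. Of Y-linked genes, Ddx3y stood at 1.36 in KO and 1.25 in wild type in group 1, and Xist, expressed from the inactive X, at 0.0135 and 0.01004.

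Of the 2000 highest genes, 37 (1.85%) were at least 2-fold above the highest of the other 11 groups. The 15 with the largest folds, leaving out unnamed gene models, were led by Gls2 at 10.6-fold, Hamp at 8.68-fold, Hal at 7.78-fold and Sds at 7.02-fold. Amino acid and nitrogen enzymes among the 15 were also Gldc, of the glycine cleavage system, with 3.61 in KO and 4.30 in wild type in group 1, against 0.770 and 0.688 in group 0; Arg1, the last step of the urea cycle, with 4.76 and 6.11, against 1.52 and 1.5; and Amdhd1, which acts after Hal in histidine breakdown, with 3.92 and 3.30, against 1.31 and 0.965. Genes of lipid and steroid handling were Hsd17b13, a lipid droplet protein, at 4.17-fold, and Hsd17b6, a steroid dehydrogenase, at 6.11-fold. Cyp2f2, a P450 of the portal side, stood at 3.29-fold, Ncam2, an adhesion molecule of neurons, at 4.73-fold, and Grm8, a glutamate receptor known from neurons, at 3.42-fold. Pck1, Cps1 and Gas2, a cytoskeletal protein, completed the 15. Gnmt lay just inside the threshold at 2.03-fold, and Sfxn1, a mitochondrial serine carrier, just under 2-fold.

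Group 0, the other hepatocyte-like group, was then set against group 1. Among the 2000 highest genes of both, 56 (2.8%) were at least 2-fold higher in group 1 and 58 (2.9%) at least 2-fold lower. Beside the markers, genes higher in group 1 included Cryl1, a sugar acid dehydrogenase, with 2.49 in KO and 2.49 in wild type in group 1, against 0.0532 and 0.0811 in group 0. Chrm3, a muscarinic acetylcholine receptor, had 11.1 in KO and 17.2 in wild type in group 1, against 0.424 and 1.67 in group 0. Esr1, the estrogen receptor, had 3.39 in KO and 2.70 in wild type in group 1, against 0.193 and 0.313 in group 0. These 3 did not single out group 1 among all groups: the ratio of group 1 to the highest other group was 1.59 for Cryl1, 1.54 for Chrm3 and 0.650 for Esr1.

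On the lower side, Slc1a2, a glutamate transporter, had 0.0907 in KO and 0.0633 in wild type in group 1, against 7.13 and 4.68 in group 0, a 76.2-fold difference. The P450 gene Cyp2c38 had 0.0555 in KO and 0.376 in wild type in group 1, against 6.75 and 12.7 in group 0, and Cyp2c29 had 0.415 and 0.827, against 11.7 and 10.9. The nuclear receptor gene Esrrg had 0.153 in KO and 0.259 in wild type in group 1, against 5.17 and 5.09 in group 0. Tox, an HMG-box factor known from T cells, had 0.167 and 1.22 in group 1, against 8.05 and 10.7 in group 0. Cyp2c genes are near-identical copies, and how their reads were divided is not given in the sources used here. Over the list of 23 pericentral genes, 19 were highest in group 0 and none in group 1. Of 18 further periportal genes, 13 were highest in group 1. Over all 21911 genes used, with no filter on level, 2164 were highest in group 0 and 1587 in group 1. By level, 9 of the 18 and 5 of the 23 are among the 2000 highest genes of group 1.

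The question put to group 1 by the design is how its RNA in Ms4a7 KO livers compared with that in wild type livers. At least 2-fold higher in KO were 73 of the 2000 highest genes (3.65%), and 29 (1.45%) were at least 2-fold lower, together 5.1% of the genes. The median log2 ratio over the 2000 was -0.12. Group 0 at the same genes had 49 (2.45%) higher and 14 (0.7%) lower. Just inside the threshold stood Aldh1l1 at 2.01-fold on the higher side and Cyp3a13, barely past 2-fold, on the lower side, and just outside it Preb at 1.99-fold and Samd4 at 1.99-fold.

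**Figure D2:**
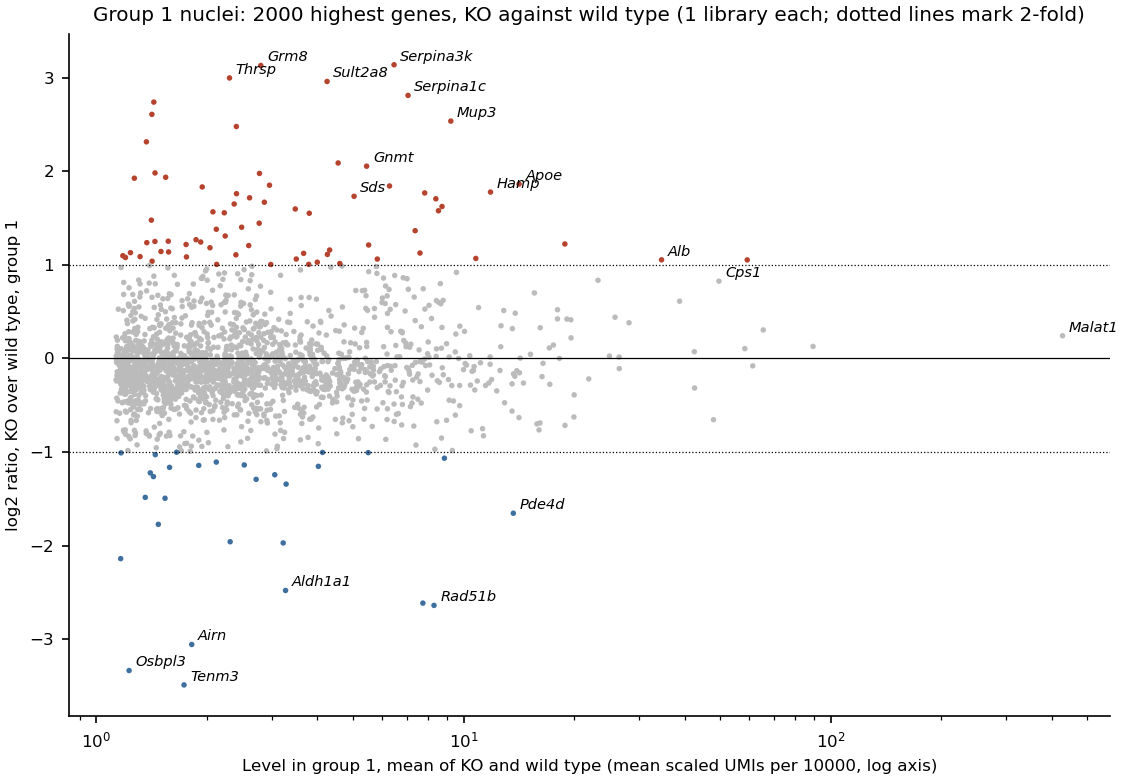
log2 ratio of KO to wild type in group 1 (y axis) against the mean level of both columns (x axis, mean scaled UMIs per 10000, log axis) for the 2000 highest genes; each point is a gene in 1 library per genotype, red at least 2-fold higher in KO, blue at least 2-fold lower, dotted lines at 2-fold. Most genes lie between the dotted lines, and 73 lie above and 29 below.

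The 12 largest differences higher in KO included secreted proteins and transporters. Serpina3k, a plasma serine protease inhibitor (chr12:104338486-104346144), had a level of 11.6 in KO and 1.32 in wild type, a log2 ratio of 3.14. Serpina1c, a mouse alpha-1-antitrypsin, had 12.4 in KO and 1.76 in wild type (log2 ratio 2.81), and Mup3, a major urinary protein that carries pheromones, had 15.8 and 2.72 (2.54). Each of these was more than 5-fold higher in KO. Slco1a1, an organic anion uptake transporter, had 2.50 in KO and 0.373 in wild type (2.74), and Selenbp2, a selenium-binding protein, had 2.43 and 0.399 (2.61). Serpina1, Serpina3, Mup and Selenbp genes have near-identical copies, so the split of reads among copies is uncertain.

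Genes of fat and small-molecule metabolism followed. Thrsp, which promotes fatty acid synthesis, had 4.10 in KO and 0.513 in wild type (log2 ratio 2.997). Angptl8, a secreted regulator of lipoprotein lipase, had 4.08 in KO and 0.732 in wild type (2.48). Ces3b, a carboxylesterase, had 7.38 in KO and 1.73 in wild type (2.09), and Gnmt, the glycine N-methyltransferase that uses up methyl groups, had 8.78 and 2.11 (2.05). Sult2a8, a sulfotransferase of bile acids, had 7.53 in KO and 0.968 in wild type (2.96). Grm8 (chr6:27275119-28135178) had 5.04 in KO and 0.575 in wild type (3.13) and Egfros, a transcript named for the strand opposite Egfr, had 2.28 and 0.458 (2.31); whether counting used strand is not given in the sources used here. Grm8 and Gnmt, both among the 37 genes at least 2-fold above every other group, are also in this set of 12.

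By function, 6 of the 11 apolipoprotein and lipoprotein assembly genes among the 2000 highest genes were at least 2-fold higher in KO, and none was lower. Over all 2000 genes, 3.65% were higher and 1.45% lower. The median log2 ratio of the 11 was 1.06, beside -0.12 over all 2000. Apoe, which clears remnant lipoproteins, had 22.2 in KO and 6.11 in wild type, and Apoa1, the main protein of HDL, had 12.9 and 3.94. Apoc3 and Apoa5, which act on triglyceride clearance in opposite ways, had 5.23 in KO and 1.73 in wild type, and 4.74 and 2.27. The list of plasma carriers and inhibitors had 7 of 17 higher and none lower (median 0.70), with Alb at 46.7 in KO and 22.5 in wild type, and Rbp4, the carrier of retinol, at 5.97 and 2.67. None of the 21 listed genes of complement and coagulation among the 2000 highest passed 2-fold in either direction (median 0.26). C9, of the membrane attack complex, had 9.70 in KO and 9.71 in wild type. Fgb and C4a, which are not on that list, were at least 2-fold higher in KO. C8b and C8g, below the 2000 highest genes, had 1.62 in KO and 0.310 in wild type, and 0.977 and 0.288.

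These secreted-protein RNAs were also found outside hepatocytes, and higher there in KO as well. Alb ran from 8.22 to 39.9 in KO and from 3.13 to 14.5 in wild type in the 10 groups other than 0 and 1, and was higher in KO in all 10. Apoe ran from 15.2 to 46.5 in KO and from 5.55 to 20.8 in wild type in those groups, Serpina3k from 2.16 to 11.6 and from 0.293 to 1.78, and Mup3 from 3.45 to 18.3 and from 0.276 to 4.99, each higher in KO in all 10. RNA of mitochondrial genes made up 0.448% of group 1 in KO and 0.300% in wild type. The part of RNA from outside the nuclei in the KO to wild type ratios of group 1 was not tested.

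Of 25 genes of the growth hormone axis and its male-biased output, 9 were among the 2000 highest. Of these 9, 5 were higher in KO and none lower (median 1.62), beside 3.65% and 1.45% of all 2000 genes. The 5 were Slco1a1, Selenbp2, Mup3, Mup20 with 13.2 in KO and 4.28 in wild type, and Cyp2d9, a male-biased P450, with 3.72 and 1.10. In wild type, Slco1a1, Selenbp2 and Cyp2d9 were below 1.13, the lowest level among the 2000, so their KO level brought them in. The count is therefore a description. Of 14 genes of fatty acid and triglyceride synthesis, 4 were higher (median 0.54). Fasn, the fatty acid synthase, had 2.45 in KO and 0.640 in wild type. Acly, which supplies acetyl-CoA, had 5.03 and 2.31, and Lpin1, a phosphatidate phosphatase, had 3.33 and 1.13. Thrsp was the fourth. Fasn and Thrsp too were below that lowest level in wild type. None of 7 genes of fatty acid oxidation and ketogenesis passed 2-fold (median -0.29). Pklr, the liver pyruvate kinase, had 4.37 in KO and 1.37 in wild type.

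The zonal genes were split, where 3.65% of all 2000 genes were at least 2-fold higher in KO and 1.45% lower. Of the 6 markers, Hamp (log2 ratio 1.78), Sds (1.73) and Gls2 (1.21) passed 2-fold higher in KO, while Cps1 (0.83), Hal (0.65) and Pck1 (0.53) did not. Of 24 genes of amino acid breakdown, 4 were higher and none lower (median 0.38): Sds, Gls2, Gnmt and Got1, an aspartate aminotransferase, with 3.20 in KO and 1.29 in wild type. In the urea cycle, 1 of 6 genes passed, Ass1 (argininosuccinate synthetase) with 7.87 in KO and 3.77 in wild type, while Arg1 had 4.76 and 6.11. None of 8 genes of glucose production passed (median 0.28), G6pc, the glucose-6-phosphatase, having 7.84 in KO and 4.70 in wild type. Taken by zone, 19 of the 56 genes at least 2-fold above group 0 were at least 2-fold higher in KO and 1 lower, with a median log2 ratio of 0.57; in group 0 the same 56 genes had 7 higher and 5 lower, with a median of 0.25. Because the 56 were chosen on the mean of both genotypes in group 1, a high KO level helped a gene into the set, and this count is a description only. Of 1834 genes within 2-fold of group 0, 43 were higher and 24 lower in group 1, with a median of -0.12.

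Of 7 general hepatocyte markers, Alb, Fgb and Serpina1c were higher in KO and none lower (median 0.70). Over all 2000 genes, 3.65% were higher and 1.45% lower. The remaining lists held at most 2 genes past 2-fold each. Vtn (vitronectin, an adhesive plasma protein; 3.07 in KO, 1.18 in wild type) and Ass1 were 2 of 9 further periportal genes (median 0.39), while none of 5 pericentral genes passed (median -0.20). Fgb, a fibrinogen chain, was 1 of 10 acute phase genes (14.6 in KO, 6.98 in wild type), and Cyp2d9 and Ugt2b1, a glucuronosyltransferase (1.93 and 0.817), were 2 of 12 genes of drug metabolism. Cyp7b1, the oxysterol hydroxylase of the alternative bile acid route, had 12.1 in KO and 3.56 in wild type, and with Slco1a1 made 2 of 12 genes for making and moving bile acids (median -0.11). Hspa5 (6.16 in KO, 3.05 in wild type) and Calr (1.79 and 0.842), chaperones of the endoplasmic reticulum, were 2 of 9 genes of the unfolded protein response (median 0.61). Insig1, which holds back sterol synthesis, had 2.16 in KO and 0.983 in wild type, G0s2, an inhibitor of fat breakdown on lipid droplets, had 2.83 and 1.25, and Onecut1, a hepatocyte transcription factor, had 7.71 and 3.33. None of 5 circadian clock genes passed 2-fold (median 0.03), nor did any of 3 nuclear noncoding RNAs, Malat1 standing at 464 in KO and 392 in wild type. Of 5 genes of the NRF2 and glutathione list, Gclc, the catalytic subunit for glutathione synthesis, was lower, with 5.73 in KO and 12.01 in wild type, and none was higher (median -0.46).

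**Figure D3:**
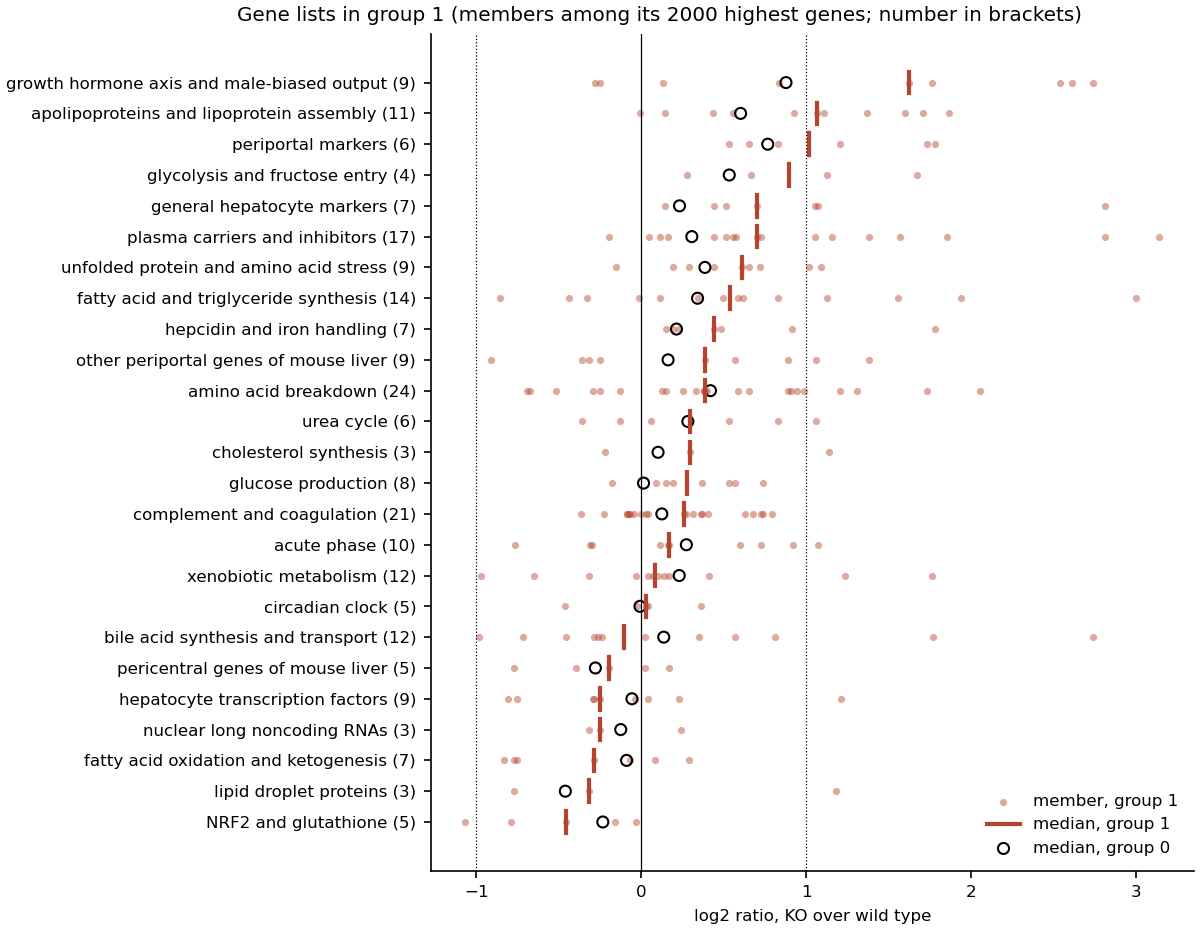
log2 ratio of KO to wild type for the members of each gene list that are among the 2000 highest genes of group 1 (red points; their number in brackets; lists with at least 3 such members), with the list's median in group 1 (red bar) and in group 0 (open circle); lists run from the highest median at the top, and dotted lines mark 2-fold. The growth hormone list, apolipoproteins and the 6 periportal markers have medians above 1, and among the lists drawn the NRF2 and glutathione list has the lowest, at -0.46. Membership rests on the mean of KO and wild type, so a high level in 1 genotype alone can bring a gene in.

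Genes lower in KO were fewer, and the 12 with the largest folds were of varied function. Tenm3, an adhesion protein of the teneurin family (chr8:48227682-48843951), had 0.283 in KO and 3.18 in wild type, a log2 ratio of -3.49. Erbb4, a receptor tyrosine kinase (chr1:68032186-69108059), had 2.17 in KO and 13.3 in wild type (-2.62), and Nrg1, a ligand of that receptor family, had 1.31 and 5.14 (-1.97). Robo1, a receptor for Slit guidance proteins, had 0.946 in KO and 3.68 in wild type (-1.96). Pde4d, which degrades cAMP, had 6.59 in KO and 20.7 in wild type (-1.65), and Elmo1, which acts with Dock proteins on Rac, had 0.806 and 2.27 (-1.49).

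Osbpl3, of the oxysterol-binding protein family, had 0.221 in KO and 2.24 in wild type (-3.34), and Airn, an imprinted noncoding RNA that overlaps Igf2r on the opposite strand, had 0.390 and 3.25 (-3.06). Rad51b, of homologous recombination, had 2.30 in KO and 14.3 in wild type (-2.64), and Aldh1a1, which makes retinoic acid, had 0.995 and 5.56 (-2.48). Slc16a12, a creatine transporter, had 0.431 in KO and 1.90 in wild type (-2.14), and Rtn4, a reticulon of the endoplasmic reticulum, had 0.667 and 2.28 (-1.77). All of the 12 but Pde4d, Airn and Rad51b had their highest mean level in groups other than 0 and 1, for Erbb4 in group 7 with 51.8 in KO and 53.5 in wild type. Pkhd1, the marker most abundant there, had 2.10 in KO and 4.10 in wild type in group 1, and its part in the lower Erbb4 was not tested.

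The same genes were then read in the other groups of the same 2 libraries. All 73 genes higher in KO in group 1 were on the same side in group 0 and 40 of them passed 2-fold there; in the median over the 10 other groups, 40 passed 2-fold as well. Their median log2 ratio was 1.40 in group 1, 1.08 in group 0 and 1.09 over the 10 other groups. All 29 genes lower in KO were on the same side in group 0, but 6 passed 2-fold there and 5 in the median of the 10 other groups; their median log2 ratio was -1.29 in group 1, -0.71 in group 0 and -0.64 over the 10 others. For Tenm3 the log2 ratio was -3.49 in group 1 and -0.59 in group 0, where its level was 8.21 in KO and 12.4 in wild type. For Rtn4 it was -1.77 and -1.82, and for Nrg1 -1.97 in group 1 and -2.97 in group 0. Over all 2000 genes, 49 (2.45%) were at least 2-fold higher in group 0 and 14 (0.7%) lower. The median log2 ratio over the 2000 was -0.12 in group 1, -0.11 in group 0 and -0.09 over the 10 other groups. The 73 and 29 were chosen on ratios in these same 2 libraries, and the share of all genes on the same side was not counted. Their sides in other groups are therefore a description. Whether the ratios of groups 1 and 0 differ could not be tested, since each group has 1 library per genotype.

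**Figure D4:**
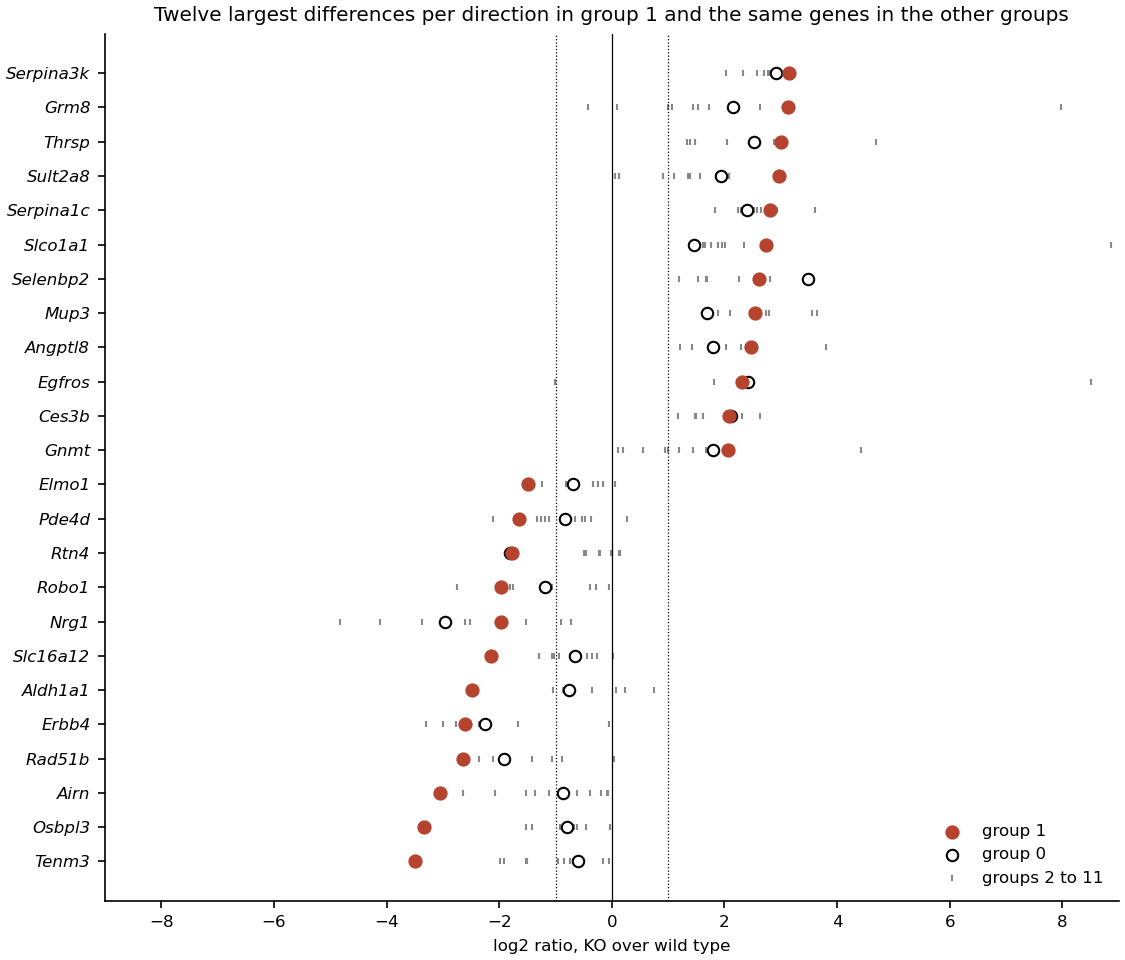
log2 ratio of KO to wild type for the 12 largest differences in each direction in group 1 (red), in group 0 (open circle) and in groups 2 to 11 (grey marks, for groups with a level of at least 0.1 in either genotype); dotted lines mark 2-fold. Genes higher in KO in group 1 are mostly higher throughout, and Tenm3, Osbpl3, Airn and Aldh1a1 lie farther from 0 in group 1 than in group 0.

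Genes that set group 0 apart from group 1 did not move together. Cyp2c38, Tox and Themis, which are below the 2000 highest genes of group 1, were 6.72-fold, 7.30-fold and 9.34-fold lower in KO in group 1, with Themis at 0.118 in KO and 1.11 in wild type. Airn was 8.33-fold lower. Glul, Cyp2e1 and Slc1a2 were not: their log2 ratios in group 1 were -0.08, 0.17 and 0.52. Of the 27 genes at least 2-fold below group 0 that are among the 2000 highest of group 1, 5 were higher and 3 lower in KO, with a median of -0.26. Over all 2000 genes, 3.65% were higher and 1.45% lower.

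Genes chosen in group 1 were last looked up in whole liver, where 3 libraries per group allow a test (limma on log2 of the value plus 1, with Benjamini-Hochberg adjustment over all genes tested). The labels do not say that libraries came from separate animals, so p-values measure the spread between libraries. In whole liver, fewer cells of a type and less RNA per cell cannot be told apart. The submitters named the table with columns labelled KO and wild type for lipid droplets, and the table with columns labelled LD and PBS for Ms4a7. Ms4a7 had 102, 117 and 136 normalized reads in libraries labelled KO, against 9.70, 25.8 and 23.3 in libraries labelled wild type, so the deleted gene was higher under the KO label. It had 10.5, 7.60 and 9.32 normalized reads in libraries labelled LD, against 62.2, 84.7 and 163 in libraries labelled PBS. Both differences passed the test (adjusted p = 0.0149 and 0.00428 by limma), although without labelled KO replicate 2 or 3 the first did not (highest adjusted p 0.063). The labels are kept below, and every direction in whole liver rests on them.

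Of the 73 genes higher in KO nuclei of group 1, 70 were tested between the libraries labelled LD and PBS, and 25 (35.7%) were called higher in those labelled LD and 0 lower, where 1.95% of 14900 genes tested were called higher and 2.21% lower, 4.16% in all. At an unadjusted p under 0.05, 40 of the 70 were higher and 0 lower, and edgeR and DESeq2 called 24 and 33 higher and 0 lower. Over all 14900 genes, in either direction, 2933 had an unadjusted p under 0.05, and edgeR and DESeq2 called 603 and 1221. Leaving out 1 library at a time gave 9 to 32 of 70 called higher, with the lowest without labelled PBS replicate 2, 13 or 14 without any other but labelled LD replicate 3, and 0 lower in all 6. Between the libraries labelled KO and wild type, 69 were tested, with 2 higher (Abcg8 and Angptl8) and 4 lower (Onecut1, Ces3b, Lifr and Phlda1), where 3.02% of 15827 genes were called higher and 0.701% lower, 3.72% in all. At an unadjusted p under 0.05, 6 of the 69 were higher and 22 lower, and 44 of 69 had a log2 fold change below 0. DESeq2 called 3 higher and 15 lower. Over all 15827 genes, in either direction, 2960 had an unadjusted p under 0.05 and DESeq2 called 1241. Their median log2 fold change was -0.02. Without 1 library the limma counts of 2 and 4 became 0 to 1 higher and 2 to 3 lower. Of the 29 genes lower in KO nuclei, 5 of 27 tested were called lower in libraries labelled LD (Rad51b, Nrg1, Tead1, Rtn4 and Osbpl3) and 0 higher by limma, with 2 higher at an unadjusted p under 0.05, 0 higher by edgeR and 1 by DESeq2. The 5 became 11 without labelled LD replicate 3, 5 without labelled PBS replicate 1, 2 without PBS replicate 3, and 1 without any of the other 3. Between the libraries labelled KO and wild type, 1 of 26 was called higher (Elmo1) and 1 lower (Aox1). Without 1 library 0 to 2 were called higher and 0 to 1 lower, and Elmo1 kept its call only without labelled KO replicate 1 (adjusted p up to 0.126 by limma in the other 5).

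Markers of other cell types moved in the same whole-liver libraries. Over all genes tested, limma called 3.02% higher and 0.701% lower in libraries labelled KO, and 1.95% higher and 2.21% lower in those labelled LD. Of 11 macrophage markers tested, 8 were called higher in libraries labelled KO than in those labelled wild type by limma. The 13 markers summed to 33572 to 59007 normalized reads in libraries labelled KO, against 4766 to 9436 in those labelled wild type. Stellate cell markers summed to 6294 to 8217 in libraries labelled KO, against 3180 to 8252 in those labelled wild type. For cholangiocyte markers the sums were 969 to 1690, against 491 to 833. No marker of these last 2 lists was called between these libraries by limma. In libraries labelled LD, 4 of 13 macrophage markers were called lower and 1 higher than in those labelled PBS, with sums of 14679 to 19296 in libraries labelled LD, against 17738 to 28029 in those labelled PBS. Also called lower there were 5 of 10 stellate cell markers, with sums of 33538 to 35355 in libraries labelled LD, against 42160 to 48837 in those labelled PBS. So were 4 of 8 cholangiocyte markers, with sums of 4081 to 7220 in libraries labelled LD, against 9993 to 13848 in those labelled PBS. Between labelled LD and PBS the sums overlap for macrophage markers and not for stellate or cholangiocyte markers. Between labelled KO and wild type they overlap for stellate markers and not for macrophage or cholangiocyte markers. Of these markers, Cftr was at 0 in all 6 libraries labelled KO or wild type, and no other was at 0 throughout either table. Without 1 library the 8 became 2 without labelled KO replicate 2, 3 without labelled KO replicate 3 and 6 to 8 otherwise. The counts lower in libraries labelled LD stayed at 4 for macrophage markers without labelled PBS replicate 1 or labelled LD replicate 3 and were 2 without any of the other 4. They were 4 and 5 for stellate markers without those same libraries and 3 without any of the other 4, and for cholangiocyte markers 5 without labelled LD replicate 3, 2 without labelled LD replicate 2 and 1 without any of the other 4. Of 7 general hepatocyte markers, 0 were called in either table by limma, with 1 at an unadjusted p under 0.05 between the libraries labelled KO and wild type and 3 between those labelled LD and PBS. For those 7, edgeR called 1 and 0, and DESeq2 1 and 3, in that order of tables. Over all genes, 2960 of 15827 and 2933 of 14900 had an unadjusted p under 0.05, in the same order. The part of other cell types in the whole-liver differences was not tested.

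Serpina3k had 380219, 365188 and 214603 normalized reads in libraries labelled LD, against 109154, 99599 and 121299 in libraries labelled PBS, without overlap (log2 fold change 1.5 ± 0.22 SE, adjusted p = 0.00889 by limma). Without labelled PBS replicate 2 its adjusted p was 0.0602. In libraries labelled KO it had 262925, 201006 and 212793, against 371135, 360356 and 403876 in libraries labelled wild type. These groups did not overlap either, with the lower values under the KO label. The difference did not pass (log2 fold change -0.75 ± 0.22 SE, adjusted p = 0.117 by limma). Gnmt averaged 37297 ± 3382 normalized reads in libraries labelled LD and 22039 ± 1204 in those labelled PBS (SD, n = 3 each; adjusted p = 0.00558 by limma), and kept the call whichever library was left out. So did Sult2a8 and, on the lower side, Rtn4, with 1791 ± 154 in libraries labelled LD and 3134 ± 359 in those labelled PBS (SD, n = 3 each). Ces3b, Lifr and Phlda1 were called in opposite directions in the 2 tables, Ces3b being higher in libraries labelled LD than in those labelled PBS (log2 fold change 1.16 ± 0.23 SE) and lower in libraries labelled KO than in those labelled wild type (-1.04 ± 0.10 SE). The first call was lost without labelled PBS replicate 1 or 2 or labelled LD replicate 1 or 2 (adjusted p up to 0.121 by limma), and the second held without any 1 library. Tenm3, the gene with the lowest ratio in group 1, had a log2 fold change of -0.05 ± 0.10 SE between libraries labelled LD and PBS and of -0.21 ± 0.24 SE between those labelled KO and wild type.

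Among the 6 periportal markers, Pck1 was called higher in libraries labelled KO (log2 fold change 1.20 ± 0.25 SE, adjusted p = 0.0422 by limma) and Gls2 in libraries labelled LD (0.48 ± 0.11 SE, adjusted p = 0.0412 by limma). Either call was lost in 5 of 6 refits that left out 1 library, Pck1 keeping it without labelled KO replicate 3 and Gls2 without labelled LD replicate 3, with adjusted p up to 0.123 and 0.129. The other 4 markers passed in neither table. Hamp had 21805, 22025 and 8426 normalized reads in libraries labelled LD, against 11361, 16962 and 14806 in libraries labelled PBS, and these groups overlap.

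**Figure D5:**
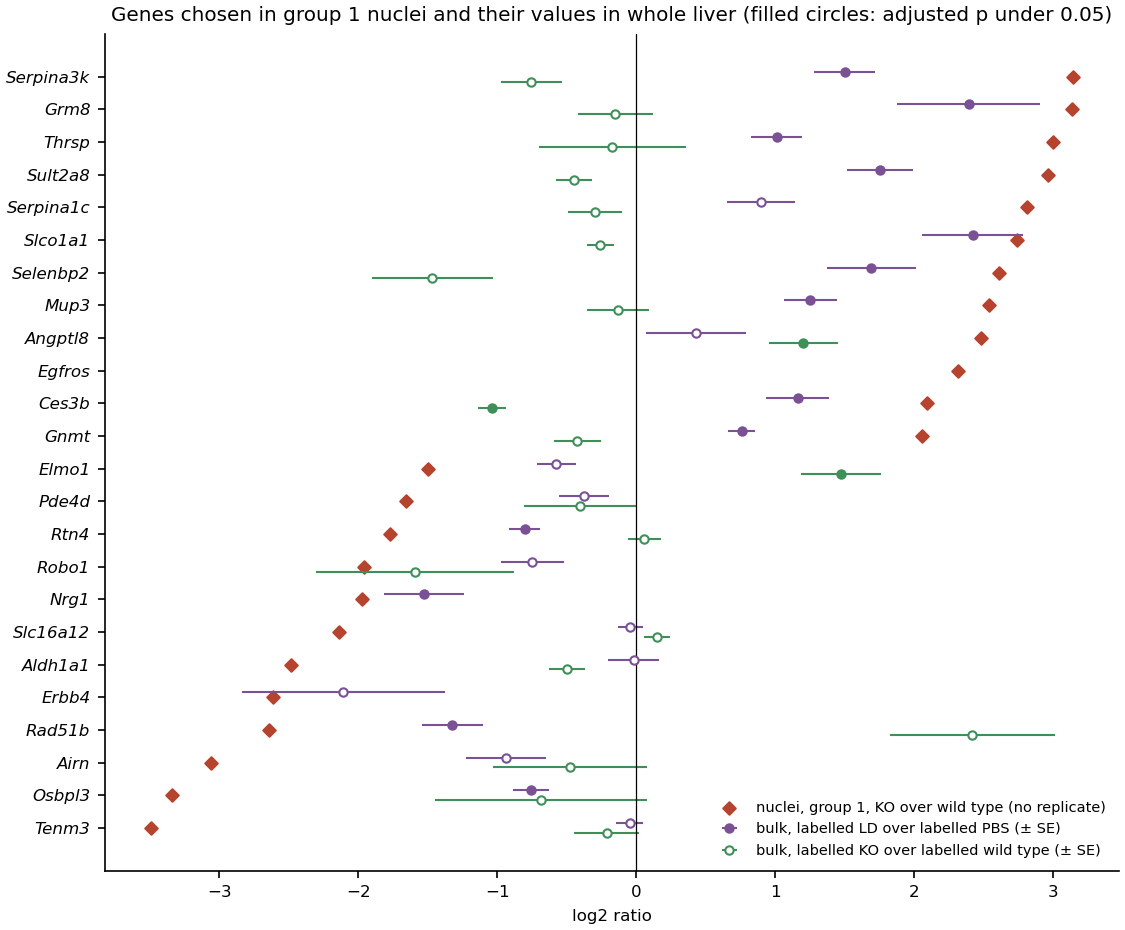
log2 ratios of the 12 largest differences per direction in group 1 nuclei (red diamonds, KO over wild type, no replicate) beside their log2 fold changes in whole liver with standard error bars (3 libraries per group), for libraries labelled LD over PBS (purple) and labelled KO over wild type (green); filled circles passed an adjusted p of 0.05. In the purple set 9 of 12 genes at the top are filled to the right of 0, and in the green set Angptl8 and Elmo1 are filled to the right and Ces3b to the left.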

How the data were processed

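Nuclei were sorted and sequenced as 2 pooled libraries, and whole liver as 12 libraries. Per the submitters' processing notes, the tools were FastQC, STAR, DESeq2, Cell Ranger and Seurat 4.0.1, with mm10 as the build; other versions, the annotation, ambient RNA and doublet handling are not given in the sources used here. The deposited signal per group of nuclei is read here as a mean of UMIs scaled to 10000 per nucleus, since every column totals 10000. The deposited bulk signal values are gene counts that the authors divided by a size factor per library: 100% came out as whole reads within 0.01, at 21945394 to 23126164 reads per library labelled KO or wild type and 39318264 to 41346464 per library labelled LD or PBS.

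Of 21915 entries, 4 with repeated names were left out. Ratios of nuclei used a pseudocount of 0.000461, the 5th percentile of values above 0 in group 1, and are on the log2(value + pseudocount) scale. Bulk genes with at least 10 normalized reads in 3 of 6 libraries were tested with limma 3.58.1 (trend) in R 4.3.3 on log2(value + 1), which understates changes of low genes; edgeR 4.0.16 and DESeq2 1.42.0 on recovered reads were alternatives. The 2 tables were scaled separately and compared only within a table. Scripts were tested on simulated data. Named genes are the 6 markers, the 15 largest folds over other groups, 10 per direction against group 0, 12 per direction between KO and wild type, and list members past 2-fold or else the highest; other genes named, such as those at a threshold or called in bulk, were chosen after their values were seen. Members and all 35 lists were chosen with earlier results of these data known. Positions are from GENCODE M21 on mm10. Some genes are not reported here.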

Additional observations from a re-analysis of the deposited data

How the results depend on the processing

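The 129 named genes and list medians of KO over wild type in group 1 were recomputed under 2 other pseudocounts and 2 rescalings of the columns, and all 516 values stayed within 1.5-fold of those reported. The counts of genes past 2-fold depended on scaling and on how many genes were admitted. With columns rescaled by median of ratios, 85 were higher in KO and 23 lower, and the median log2 ratio was -0.04. With columns rescaled to the same total, they stayed at 73 and 29. Over the 1000 highest genes, 33 were above group 0, 47 higher in KO and 14 lower. Over the 5000 highest, 61 were above all other groups, 106 above and 123 below group 0, and 155 higher and 110 lower in KO. With no filter these were 193, 1360, 1277, 2039 and 2353. Thus the share of higher genes among those past 2-fold was 71.6% over 2000 genes, 58.5% over 5000 and 46.4% with no filter. Leaving group 0 out of the comparison gave 386 genes above the other groups, taking their mean in place of the highest 683, and leaving out group 5, an alternative chosen after seeing the data, 38. In bulk, calls numbered 589 for libraries labelled KO against wild type and 620 for LD against PBS; DESeq2 gave 1241 and 1221, and the cause was not tested. Leaving out 1 library at a time gave 124 to 530 and 134 to 1226. With a replicate block they were 822 and 793, and same-numbered libraries were not paired by the data: 2 of 6 and 3 of 6 libraries correlated best with their own number. Depth of the nuclei is unknown, so low levels such as those of Cyp2c38 and Themis carry an error that cannot be given.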
